A study of Mus musculus with 6 samples.

Results

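The genes described here are transcription factors that set or mark the layer identity of projection neurons in the mouse cerebral cortex. Of 9 genes chosen by name for this role, 7 had a row in the expression tables of all mice, out of 22651 genes in the tables, and all 7 were expressed highly enough to be tested. Tbr1, Fezf2, Sox5 and Bcl11b represented the deep layers (V and VI), and Cux1, Cux2 and Bhlhe22 the upper layers (II to IV). Rorb and Tle4, also chosen, were not analysed here. The rule used gene names and no measured value, but the names were put forward with earlier results of these data known.

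Messenger RNA was sequenced from the telencephalon of mice at postnatal day 0, in 3 WT and 3 TSC1-KO animals. The WT genotype was TSC1 flox/flox with Emx1 +/+, and the TSC1-KO genotype was TSC1 flox/flox with Emx1-cre/+, so that both groups carried the floxed allele and the WT animals were littermates that lacked Cre. Tsc1 encodes hamartin, a brake on the growth kinase complex mTORC1. The Emx1 locus drives Cre in progenitors of the embryonic dorsal cortex, so recombination is limited to cells of that origin, whereas the libraries also contain striatum and other tissue of ventral origin. The question asked of these genes was whether loss of Tsc1 went with a shift in the RNA of deep-layer against upper-layer factors at birth.

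Cortical projection neurons are born in sequence, with deep-layer neurons before upper-layer neurons. Fezf2 and Bcl11b (also called CTIP2) specify subcerebral projection neurons of layer V, Tbr1 specifies corticothalamic neurons of layer VI and represses Fezf2, and Sox5 controls the timing by which deep-layer subtypes emerge. Cux1 and Cux2 are homeodomain factors of upper-layer neurons. Bhlhe22 (BHLHB5) is a basic helix-loop-helix repressor of postmitotic neurons, used here as an upper-layer gene, although it also acts in layer V.

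Total expected counts ranged from 14119365 to 17772865 per mouse, and 3 counts corresponded to 0.169 to 0.212 CPM, a count scaled to the size of its library. Replicates within a group differed by more than counting noise, with a chi-square per degree of freedom of 5.68 to 17.4, so no library was a copy of another. The leading principal component, which held 47.7% of the variance, placed TSC1-KO replicate 3 (-3.95) nearest the WT libraries (-26.3 to -7.43) and apart from the other TSC1-KO libraries (26.5 and 30.3). Both replicate 3 mice had almost no Xist RNA (0.48 and 0.66 TPM, a level scaled to transcript length and library size), against 442 to 509.9 TPM in the others. The tissue label was checked against markers. Emx1, a marker of the dorsal telencephalon, lay between 36.2 and 47.4 TPM, and the 5 thalamic markers read beside it summed to 42.3 to 49.6 TPM. Of these Gbx2 lay between 0 and 2.08 TPM, whereas Prkcd, named after its values were seen, lay between 27.2 and 35.4 TPM, so the list as a whole was not absent. Tsc1 itself was at 50.2, 32.0 and 28.4 TPM in WT and at 27.1, 21.7 and 22.4 TPM in TSC1-KO. These ranges did not overlap, but the log2 fold change of -0.66 (SE 0.175) missed the threshold of 0.05 in edgeR's quasi-likelihood test (Benjamini-Hochberg adjusted p = 0.09998), and counts over the undeleted part of the transcript remain in this value.

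Among the members, Cux1 and Bcl11b have RefSeq coding forms that the gene totals add together, and their sequences are shown because the level of either gene is a sum over such forms. For each form the shared coding bases just before the forms part are in lower case, and its next 60 coding bases are in capitals. They were read from GRCm38, 5′ to 3′ on the minus strand, and credited to RefSeq. The Cux1 forms part after the last of their 1249 shared coding bases, at base 136314307 of chromosome 5.
Cux1, long form with the homeodomain: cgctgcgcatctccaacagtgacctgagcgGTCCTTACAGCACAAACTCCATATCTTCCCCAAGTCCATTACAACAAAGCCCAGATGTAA
Cux1, short CASP form without it: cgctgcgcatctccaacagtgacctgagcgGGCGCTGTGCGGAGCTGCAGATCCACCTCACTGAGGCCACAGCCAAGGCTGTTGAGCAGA
The Bcl11b forms part at base 107989465 of chromosome 12, where the shorter form skips 1 exon of the longer. All 2436 coding bases of the shorter form are shared, so its capitals also occur further on in the longer form.
Bcl11b, longer form: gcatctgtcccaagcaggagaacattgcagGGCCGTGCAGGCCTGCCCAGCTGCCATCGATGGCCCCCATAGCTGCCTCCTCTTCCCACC
Bcl11b, shorter form: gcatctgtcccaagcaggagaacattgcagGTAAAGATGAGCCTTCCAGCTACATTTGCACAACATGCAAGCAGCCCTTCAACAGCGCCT

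Of the 7 members, 1 passed the test and it was lower in TSC1-KO: Bcl11b, which fell to 0.676 of its WT level. Across all 13969 genes tested, 1.52% passed in either direction, 0.659% as lower and 0.859% as higher. The groups did not overlap for 2 members, Bcl11b below and Bhlhe22 above, where 22.7% of all genes tested had groups that did not overlap, 11.7% with TSC1-KO lower and 10.9% with TSC1-KO higher. The median log2 fold change of the members was 0.03, beside -0.00 over all genes tested, with 4 members above 0 and 3 below.

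Bcl11b (chr12:107910403-108003602 in GRCm38, minus strand) encodes a zinc finger protein that layer V neurons need to send axons to the spinal cord. It stood at 104, 111 and 119 TPM in the WT mice. In the TSC1-KO mice it stood at 70.4, 71.2 and 88.7 TPM. Every TSC1-KO value lay below every WT value, and TSC1-KO replicate 3 came nearest. The log2 fold change was -0.56 (SE 0.112, 95% interval -0.82 to -0.31, n = 3 per group), with an adjusted p of 0.0479 in edgeR's test, just inside the threshold. On TPM the exact permutation test gave p = 0.1, the smallest that 3 against 3 animals can give. The call was lost without WT replicate 2 (adjusted p = 0.185), without WT replicate 3 (0.162), without TSC1-KO replicate 1 (0.195), without TSC1-KO replicate 2 (0.209) and with upper-quartile normalization (0.0502), while the log2 fold change stayed between -0.70 and -0.49 in all 15 alternatives. It held without replicate 3 of both groups (adjusted p = 0.00579). In whole tissue such a value cannot tell fewer cells of a type from less RNA per cell.

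The other deep-layer members did not pass the test. Tbr1 (chr2:61802930-61814114, plus strand), the T-box factor of layer VI, stood at 175, 150.3 and 145 TPM in WT and at 165, 169.95 and 140.2 TPM in TSC1-KO. The groups lay on top of each other, at 157 ± 16.2 against 158 ± 15.9 TPM (mean ± SD, n = 3), and the log2 fold change of -0.01 had a 95% interval of -0.21 to 0.18 (edgeR adjusted p = 0.952). Sox5 (chr6:143828425-144781977, minus strand), an SRY-box factor, stood at 59.4, 54.8 and 50.2 TPM in WT and at 59.5, 65.6 and 45.9 TPM in TSC1-KO. The TSC1-KO mice spread over a wider range than the WT mice and enclosed them, and the interval of the log2 fold change ran from -0.23 to 0.29. Fezf2 (chr14:12342094-12348189, minus strand), a zinc finger repressor that acts upstream of Bcl11b in layer V neurons, stood at 60.2, 64.0 and 53.6 TPM in WT and at 73.4, 66.1 and 62.9 TPM in TSC1-KO. Only TSC1-KO replicate 3 fell inside the WT range, and the log2 fold change was 0.16 (SE 0.0881, 95% interval -0.04 to 0.35, edgeR adjusted p = 0.393).

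The ratio of Bcl11b to the factor upstream of it was lower in TSC1-KO. The log2 ratio of Bcl11b to Fezf2 CPM was 2.68 ± 0.209 in WT and 1.96 ± 0.289 in TSC1-KO (SD, n = 3), a difference of -0.73 with groups that did not overlap. This difference is not separate from the log2 fold change of Bcl11b itself (-0.56). That of Fezf2 (0.16) did not pass the test. Against Tbr1 the difference in the log2 ratio was -0.55, and there the groups overlapped. The libraries also contain striatum, where Bcl11b is expressed too, so these ratios do not describe layer V neurons alone.

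None of the 3 upper-layer members passed the test. Bhlhe22 (chr3:18054174-18057517, plus strand) stood at 249, 198 and 171 TPM in the WT mice and at 287, 330.4 and 250.4 TPM in the TSC1-KO mice. Every TSC1-KO value lay above every WT value, although TSC1-KO replicate 3 and WT replicate 1 nearly met. The log2 fold change was 0.47 (SE 0.128, 95% interval 0.18 to 0.75), a 1.38-fold higher mean, with an edgeR adjusted p of 0.105 and an exact permutation p of 0.1 on TPM. It passed in 4 of the 15 alternatives, including DESeq2 (adjusted p = 0.00790, by which 2.6% of all genes passed as higher), and its log2 fold change lay between 0.35 and 0.60 in all of them. Cux2 (chr5:121856366-122050102, minus strand), which promotes dendrite branching and synapse formation in upper-layer neurons, stood at 40.7, 41.2 and 35.5 TPM in WT and at 47.2, 53.4 and 37.99 TPM in TSC1-KO. Replicates 1 and 2 of TSC1-KO lay above all WT mice and replicate 3 did not, and the log2 fold change was 0.21 (95% interval -0.05 to 0.47, edgeR adjusted p = 0.378). Cux1 (chr5:136248135-136567490, minus strand) stood at 119.8, 119.6 and 123 TPM in WT and at 117, 128 and 116 TPM in TSC1-KO. It varied least of the members among the WT mice (SD 2.19 TPM), and the log2 fold change of -0.03 had the narrowest interval of the members, from -0.19 to 0.13.

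**Figure D1:**
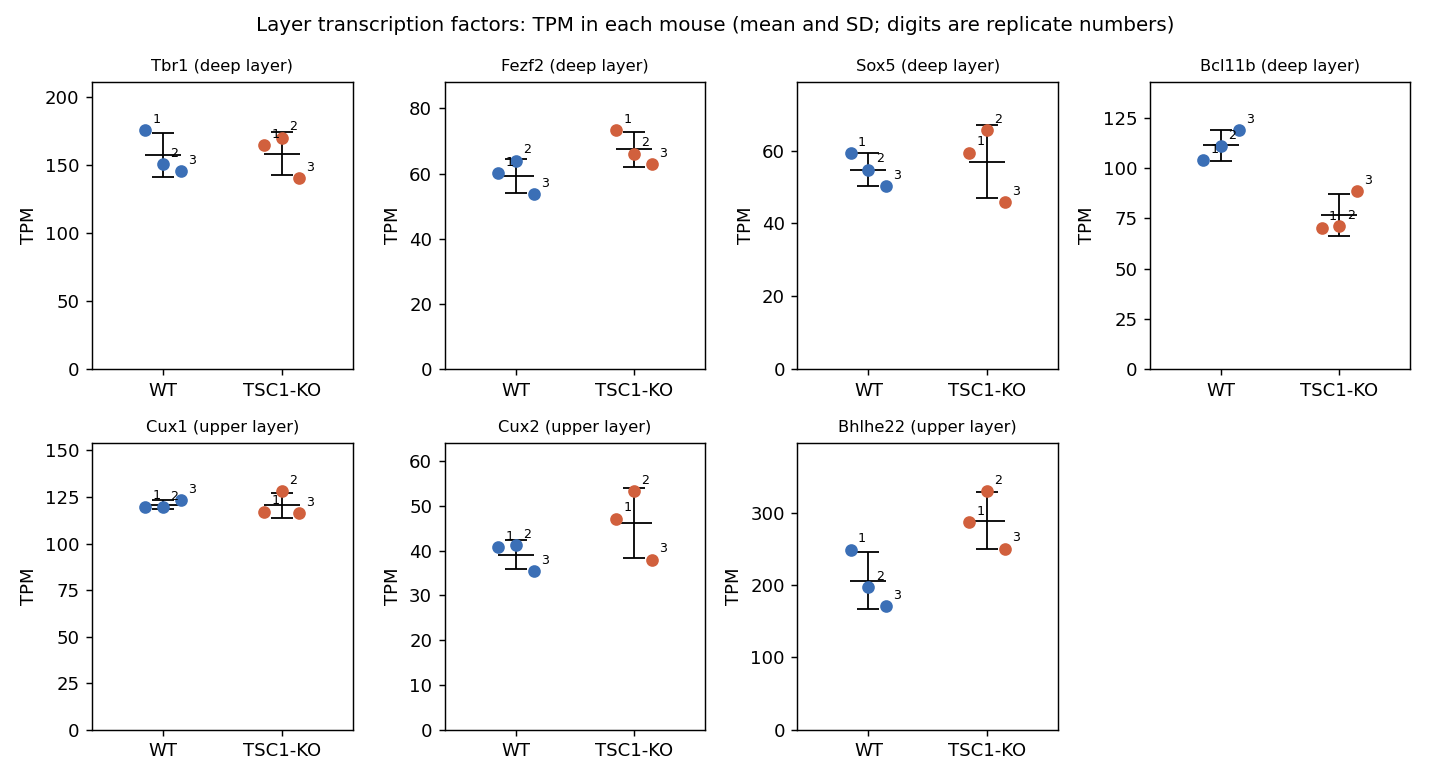
TPM of the 7 layer transcription factors in each WT (blue) and TSC1-KO (orange) mouse. Points are mice labelled by replicate number, horizontal bars show the mean and SD, and each vertical axis starts at 0. Bcl11b is the member whose TSC1-KO mice (70.4 to 88.7 TPM) all lie below the WT mice, and Bhlhe22 the one whose TSC1-KO mice (250.4 to 330.4 TPM) all lie above them.

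**Figure D2:**
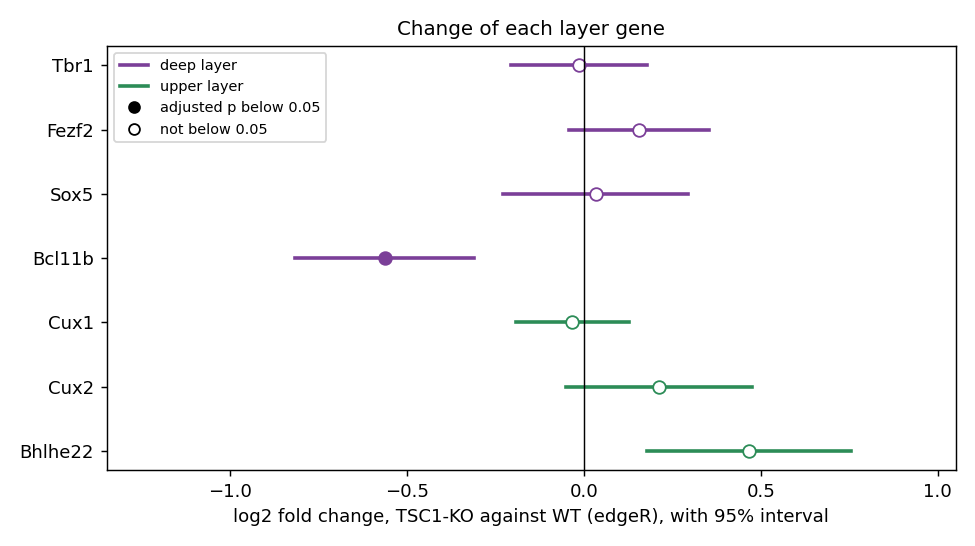
Log2 fold change of TSC1-KO against WT from edgeR with its 95% interval for each layer transcription factor. Filled points passed an adjusted p of 0.05, and among those drawn this was Bcl11b alone, at -0.56.

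Per length, the order of the levels was the same in both groups, from Bhlhe22 through Tbr1, Cux1, Bcl11b, Fezf2 and Sox5 down to Cux2. In WT the ranges of Bhlhe22 and Tbr1 overlapped, as did those of Fezf2 and Sox5, and the other neighbours were apart. In TSC1-KO, Bhlhe22 (289 ± 40.0 TPM) stood clear of Tbr1, whereas Bcl11b (76.8 ± 10.3 TPM) reached down into the range of Fezf2 (67.4 ± 5.37 TPM). Sox5 overlapped with both of its neighbours there, Fezf2 and Cux2.

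For the contrast of deep against upper layers, the mean log2 CPM of the 3 upper-layer members was subtracted from that of the 4 deep-layer members in each mouse. The result was 0.11, 0.18 and 0.22 in the WT mice and -0.11, -0.27 and -0.05 in the TSC1-KO mice. All WT values were above 0 and all TSC1-KO values below it, and the group means of 0.17 ± 0.0583 and -0.14 ± 0.111 (SD, n = 3) differed by -0.31. No test was made of this score because the genes were chosen with earlier results of these data known. Bcl11b accounted for much of it. Without Bcl11b the values were -0.20, -0.17 and -0.19 in WT and -0.26, -0.42 and -0.36 in TSC1-KO, which still did not overlap, and the difference shrank to -0.16. Leaving out Bhlhe22 in place of Bcl11b gave a difference of -0.19. The score without both genes together was not tested. For each of the remaining members the groups overlapped. Their log2 fold changes were -0.01 (Tbr1), 0.16 (Fezf2) and 0.03 (Sox5) in the deep layers. In the upper layers they were -0.03 (Cux1) and 0.21 (Cux2), which enclosed the deep-layer values. A shift between the layers was therefore not shown beyond Bcl11b and Bhlhe22. The Cux1 value also counts the form without the homeodomain. By coding lengths the long form made up at most 50.1% of its molecules. An unchanged Cux1 value thus says little about the upper-layer factor alone, in the score as well.

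**Figure D3:**
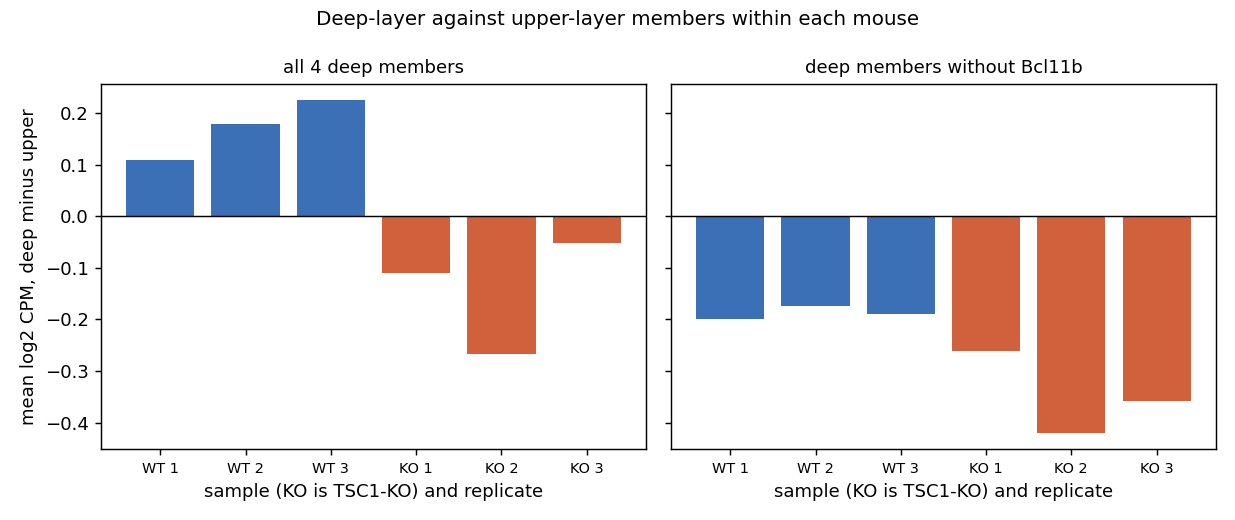
Mean log2 CPM of the deep-layer members minus that of the upper-layer members in each mouse (bars, blue for WT and orange for TSC1-KO), with all 4 deep-layer members on the left and without Bcl11b on the right. The left bars are positive in WT (0.11 to 0.22) and negative in TSC1-KO (-0.27 to -0.05), and the right bars are all negative and lower in TSC1-KO.

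Bcl11b is also a marker of striatal projection neurons and occurs in some GABAergic interneurons, so the markers of these cells were read in the same mice. All 17 striatal markers tested had a log2 fold change below 0, with a median of -1.36. Of these, 2 passed the test, Sp9 (-0.95, edgeR adjusted p = 0.0214), a zinc finger factor of striatopallidal neurons, and Meis2 (-0.45, adjusted p = 0.0479), a homeodomain factor. Their summed level was 752 to 927 TPM in WT and 393 to 612 TPM in TSC1-KO, and none of the 17 was at 0 in any mouse. The 11 interneuron and GABA markers were likewise all below 0, with a median of -0.68 and 5 that passed, among them Slc32a1 (-1.19), the vesicular GABA transporter, and the GABA-synthesizing enzymes Gad2 (-1.03) and Gad1 (-0.83). Their summed level was 1219 to 1403 TPM in WT and 663 to 994 TPM in TSC1-KO. The calls of Sp9, Meis2, Slc32a1, Gad2 and Gad1 were each lost when WT replicate 2 or 3 or TSC1-KO replicate 1 or 2 was left out (adjusted p of 0.0771 to 0.208), and those of Slc32a1 and Gad1 also without WT replicate 1 (0.0536 and 0.0528). Slc32a1 also lost it with upper-quartile normalization (0.0502).

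Mouse by mouse, Bcl11b followed the striatal markers. The mean log2 CPM of the 17 markers was 4.74, 4.86 and 5.17 in the WT mice and 2.94, 3.19 and 4.38 in the TSC1-KO mice. Bcl11b stood at 284, 315 and 346 CPM and at 190.4, 198 and 250.3 CPM in the same mice, which put the 6 mice in the same order. TSC1-KO replicate 3, which was nearest to WT in Bcl11b, was nearest in the striatal markers too. Bhlhe22 ran nearly in the opposite order, at 277, 228 and 202 CPM in WT and at 316, 375 and 286 CPM in TSC1-KO. From high to low, the leading principal component put the mice in the order of rising Bcl11b but swapped TSC1-KO replicates 1 and 2. It stood at -7.43, -19.1 and -26.3 in WT and at 26.5, 30.3 and -3.95 in TSC1-KO. That component was computed over all genes tested, the striatal markers among them, so it is not a separate reading of the order. The choroid plexus markers also moved with the groups, with all 4 below 0 (median -1.97, none passing) and a summed level of 1167 to 2454 TPM in WT against 28.8 to 859 TPM in TSC1-KO. The part of these markers in the values of Bcl11b and Bhlhe22 was not tested.

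**Figure D4:**
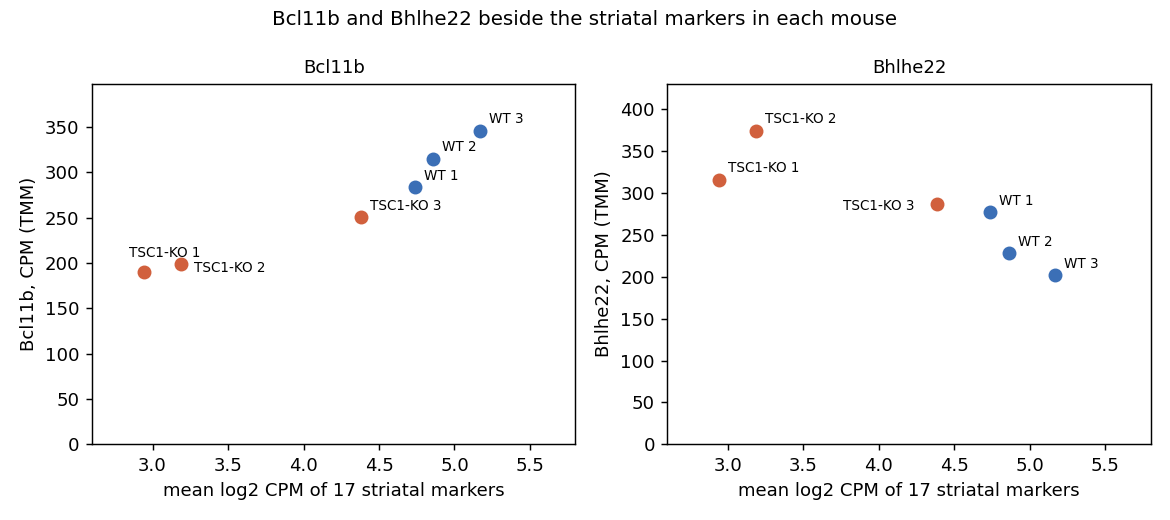
Bcl11b (left) and Bhlhe22 (right) in CPM, normalized by TMM, against the mean log2 CPM of 17 striatal projection neuron markers, with 1 labelled point per mouse (blue WT, orange TSC1-KO). Bcl11b lies higher in mice with more striatal marker RNA, in both groups, from 190.4 CPM at 2.94 to 346 CPM at 5.17, and Bhlhe22 lies lower.

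The genes most like each member were taken as those with the highest Pearson r of log2 CPM over the 6 mice, among 10370 genes with a mean log2 CPM of at least 3. With so few mice and so many genes, values near 1 were reached for every member, and they are given as a description. For Bcl11b these were Foxp2 (r = 0.997), a forkhead factor of layer VI and striatal neurons, Ppp1r1b (r = 0.997), which encodes the striatal phosphoprotein DARPP-32, and Gm6654 (r = 0.996). Foxp2 passed the test with a log2 fold change of -1.001 (edgeR adjusted p = 0.0479), while Ppp1r1b did not (-1.13, adjusted p = 0.0570). The call of Foxp2 was lost under the same alternatives as that of Bcl11b, with an adjusted p of up to 0.208. For Bhlhe22 they were Ipp, Celsr2 and Frmd3 (r = 0.995 to 0.996), for Cux2 Gga3, Llgl1 and Nfix (0.983 to 0.990), and for Fezf2 Pan2, Grn and Timm10b (0.973 to 0.986). For Sox5 they were Cep57l1, Vps33b and Pbdc1 (0.973 to 0.987), for Cux1 Bub3, Sae1 and Star (0.971 or above), and for Tbr1 Zfp87, Large and Dio2 (0.990 to 0.992). Between the members themselves, Bcl11b ran against Bhlhe22 (r = -0.93) and Fezf2 (r = -0.81), whereas Tbr1 and Sox5 ran together (r = 0.90), as did Sox5 and Cux2 (r = 0.83).

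Other genes of cortical projection neurons were counted in the same way. Of 16 other deep-layer and subplate markers, 1 passed, Foxp2, which stood at 31.9, 34.6 and 40.5 TPM in WT and at 14.3, 15.2 and 24.4 TPM in TSC1-KO. The list had 7 genes above 0 and 9 below, with a median of -0.03, and the subplate gene Ctgf was at 0.54 (adjusted p = 0.166). Of 14 other upper-layer and callosal markers none passed, 11 lay above 0 and the median was 0.11. The highest was Rasgrf2, a Ras exchange factor of upper layers, at 0.66 (edgeR adjusted p = 0.0789). The summed level of the deep-layer list was 1292 to 1339 TPM in WT and 1224 to 1289 TPM in TSC1-KO, and that of the upper-layer list was 1529 to 1597 TPM in WT and 1606 to 1781 TPM in TSC1-KO, so that neither overlapped. The 8 general markers of cortical glutamatergic neurons had a median of 0.02 and none passed, with the vesicular glutamate transporter Slc17a7 at 0.25 and Emx1 at -0.22. Every TSC1-KO mouse and no WT mouse carried Emx1-cre, so an effect of that allele on Emx1 cannot be told apart.

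Of 20 other transcription regulators of cortical projection neurons, Foxp2 again was the 1 that passed, and the median was 0.05. Among 10 tested genes of the families to which the members belong, none passed, and the median was 0.03. Sox13, of the same group of SRY-box factors as Sox5, was at -0.63 (edgeR adjusted p = 0.0683), and Eomes, the T-box factor of intermediate progenitors that precedes Tbr1, was at 0.46 (adjusted p = 0.307). Of 9 cortical progenitor markers 1 passed, Sox2 at -0.47 (adjusted p = 0.0297), and the median was -0.17. Among the remaining cell types, Gfap, an astrocyte filament, rose by 1.09 (adjusted p = 0.00683), and the other 4 astrocyte markers did not pass, with Gja1, a gap junction protein, at -0.69 (adjusted p = 0.130) and a median of 0.21 over the list. Sox2 lost its call without WT replicate 2 or 3 or TSC1-KO replicate 1 or 2 (adjusted p of 0.125 to 0.155), and Gfap without WT replicate 2 (0.0562) or TSC1-KO replicate 1 (0.0620). No oligodendrocyte lineage, microglia, endothelial, thalamic or red blood cell marker passed, with medians of -0.12, -0.44, -0.48, -0.21 and -0.93 respectively.

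**Figure D5:**
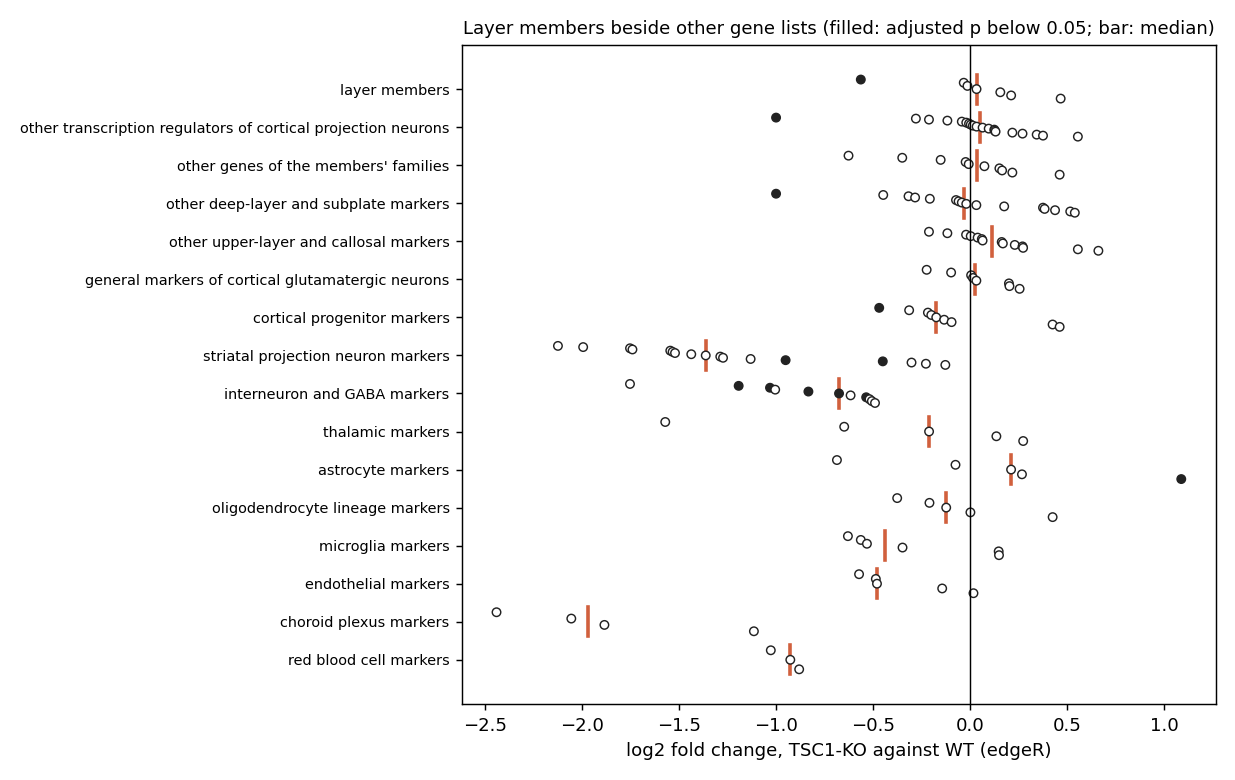
Log2 fold change of TSC1-KO against WT from edgeR for the layer transcription factors (top row) and for each list of other genes, with 1 point per gene, filled where the adjusted p was below 0.05, and an orange bar at the median of the list. The layer members centre near 0 (median 0.03) with Bcl11b apart at -0.56, whereas the striatal (median -1.36) and GABA (median -0.68) lists lie wholly below 0.

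The tables also gave a mean transcript length for each gene, weighted by the abundance of its forms, which reads the make-up of forms apart from the level. Bcl11b averaged 7778 ± 10.2 bases in WT and 7764 ± 18.3 bases in TSC1-KO, so its lower level came with a length difference of -13.5 bases that was within the spread (exact permutation p = 0.3, where 0.1 is the smallest possible). Sox5 averaged 7170 ± 8.44 and 7183 ± 3.83 bases (exact permutation p = 0.2). Cux1 averaged 3136 ± 17.2 bases in WT and 3134 ± 26.1 bases in TSC1-KO (exact permutation p = 0.9), and it was short in every mouse, between 3104 and 3155 bases. The long Cux1 form, whose protein carries the cut repeats and the homeodomain, has a coding part of 4278 bases on its own, and the short form, which encodes a Golgi protein, has 2028. From the coding lengths alone, the long form can have made up at most 50.1% of Cux1 molecules in any mouse, so the Cux1 level counts the Golgi form as well as the layer factor. With the GENCODE transcript lengths of 12862 and 2831 bases the share would be 2.72 to 3.23%. That estimate is loose, because of 15620 genes with 1 transcript, 23.9% had the same length in the tables as in GENCODE to within 0.5 bases and 71.3% had it to within 5%. The other members had 1 transcript each in the tables.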

How the data were processed

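Total RNA from the telencephalon of 3 WT and 3 TSC1-KO mice was made into libraries with a kit that does not mark strand. Per the study's methods, MapSplice2 placed the authors' trimmed reads on mm10 and RSEM 1.2.12 estimated gene abundance. The deposited tables hold, per gene and mouse, expected counts, TPM, FPKM and abundance-weighted transcript lengths; the release of the RefSeq transcripts is not given in the sources used here. The authors' TPM values were used for levels, and the deposited FPKM values were not used.

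Expected counts were rounded, normalized by TMM, filtered by filterByExpr and tested across all genes with edgeR 4.0.16 (glmQLFit, glmQLFTest) in R 4.3.3, with Benjamini-Hochberg adjustment over all genes and a threshold of 0.05. Log2 CPM used a prior count of 2. TPM and lengths were compared by two-sided exact permutation tests. The scripts were tested on simulated data. Alternatives were DESeq2 1.42.0, limma 3.58.1 on log2(TPM + 1), other normalizations and filters, a length offset, a replicate block and leaving out replicates. With 3 mice per group, the edgeR p-values set a difference against the variation between these animals, estimated with information shared across genes.

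The members and lists were chosen with earlier results of these data known. Named genes were the members, Tsc1, in each list the 3 called genes with the largest change (or the called genes and then the largest changes, up to 2 in all) and the 3 genes most like each member. Of the genes this rule names, 1 is not reported here. Positions are from GENCODE on GRCm38. Exons of Sox5 and Cux1 overlap an antisense gene, so reads of these cannot be told apart without strand. Replicate numbers were not shown to pair the mice.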

Additional observations from a re-analysis of the deposited data

How the results depend on the processing

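Genes that passed the test numbered 212 with edgeR, 642 with DESeq2, 346 with no filter on low counts and 434 with replicate 3 of both groups left out; leaving out 1 mouse gave 29 to 799, lowest without WT replicate 2 and highest without TSC1-KO replicate 3. Members that passed numbered 1, but 0 with upper-quartile normalization (also 0 of the deep-layer members), 2 with DESeq2 (1 of them upper-layer, Bhlhe22), and 0 to 2 with 1 mouse left out (0 to 1 deep-layer, 0 to 1 upper-layer). The difference of deep minus upper members was -0.31, -0.19 without Bhlhe22 and -0.16 without Bcl11b, and -0.36 to -0.25 with 1 mouse left out; leaving out Rorb was not run because Rorb was not analysed here. Members near 0 changed sign: Tbr1 was at 0.012 with limma, at 0.022 without replicate 3 of both groups and at -0.075 to 0.057 with 1 mouse left out; Cux1 was at 0.020 without replicate 3 of both groups and at -0.091 to 0.00076 with 1 mouse left out; Sox5 was at -0.089 to 0.16 with 1 mouse left out. Where no cause is shown by fewer mice or genes, the cause was not tested. Among the recomputed log2 fold changes of named genes, 512 kept their direction and side of the threshold, 39 lost the threshold, 51 newly passed it and 8 changed sign.

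Replicate numbers shared by the groups were not shown to pair the mice. Deviations of same-numbered mice correlated at 0.27, -0.13 and 0.32, and those of differently numbered mice at -0.39 to 0.21. With so few mice these values cannot exclude pairing. With replicate number as a block, 551 genes passed, with 2 of the members, Bcl11b (adjusted p = 0.00554) and Bhlhe22 (0.0408), so 1 was upper-layer.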
